A study of Mus musculus with 5 samples.

Results

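Iron storage, uptake and export were examined through 10 genes chosen by symbol: Fth1, Ftl1, Ncoa4, Tfrc, Slc11a2, Slc11a1, Slc40a1, Blvrb, Ireb2 and Aco1. All 10 are among the 21983 genes of the table, and all 10 had enough counts to be tested. The cells were primary microglia, macrophages that reside in brain tissue, taken from mouse brain and profiled by RNA sequencing. The 2 knockout-labelled libraries have the genotype Cx3cr1CreERT2 Ythdf2fl/fl, in which a tamoxifen-inducible Cre recombinase is made from the Cx3cr1 locus and Ythdf2, which encodes a reader of N6-methyladenosine in mRNA, is flanked by loxP sites. The 3 control libraries have the genotype Ythdf2fl/fl, so the floxed alleles are common to both groups and the Cre allele is not. The Cx3cr1 locus is also active in other brain macrophages and in monocytes. Age, tamoxifen treatment and pooling are not given in the labels. Nothing in them ties a library to an animal or culture of its own, and the p-values therefore describe only the spread among these libraries, which may be technical.

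Total gene counts were 13947500 to 19577217 per library. Ythdf2 itself was higher in the knockout-labelled libraries, at 103.4 and 127 CPM (the usual scaling of read counts by library size, here with TMM), against 57.0, 69.2 and 68.7 CPM in the controls. The targeted gene therefore goes against the label, every direction below is drawn from the labels, and a gene-level count does not check the deletion. Markers of microglia were present in every library, with 8 markers summing to 3041 and 3861 CPM in the knockout-labelled libraries and 4732 to 5888 CPM in the controls. Monocyte markers summed to 54.5 and 23.4 CPM in the knockout-labelled libraries and 3.52 to 6.83 CPM in the controls. Ace made 38.5 and 13.1 CPM of the knockout-labelled sums, and Spn 15.2 and 8.32 CPM. The highest control value was 2.45 CPM for Ace and 2.79 CPM for Spn. Ccr2 overlapped between groups. Chil3 had no count in any library, Ly6c2 was counted only in knockout-labelled library 2 and Plac8 only in control 1. Of the 7 erythroid markers, 6 had no count in any library, and the list summed to at most 0.535 CPM. Of these 6, 4 are globin genes with near-identical copies, whose reads may have been left uncounted.

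Cells take up transferrin-bound iron through the transferrin receptor (Tfrc), move it out of endosomes through the divalent metal transporters (Slc11a2, and Slc11a1 in the phagosomes of macrophages), store it in ferritin shells built of heavy and light chains (Fth1, Ftl1) and export it through ferroportin (Slc40a1). Ncoa4 encodes the receptor that delivers ferritin to lysosomes for degradation. Blvrb encodes biliverdin reductase B, a flavin and biliverdin reductase. Aco1 and Ireb2 encode the iron regulatory proteins, which bind hairpins called iron-responsive elements when iron is scarce. Binding at the start of an mRNA blocks translation, as for ferritin and ferroportin, and binding at the end protects the mRNA from decay, as for Tfrc. Microglia and oligodendrocytes are the ferritin-rich cells of brain tissue.

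The iron-responsive elements are shown because they are a sequence feature that some of the storage, uptake and export members share. Hairpins were searched on the sense strand of the untranslated regions of GENCODE M21 transcripts (GRCm38) as a bulged C, 5 stem bases, the loop CAGTGN and 5 bases that pair with the stem, G with T allowed. Of genes with an annotated region, 0.146% held a match in a 5′ untranslated region and 0.679% in a 3′ untranslated region. Matches were found in 4 of the 10 genes. A match is a description of the sequence, and the lack of one in the other genes says only that these letters are not in these regions. A hairpin with an extra unpaired base within this stem would not be matched. Sites are written 5′ to 3′ with the loop in capitals.
Fth1, 5′ untranslated region, chr19:9982733-9982759, plus strand: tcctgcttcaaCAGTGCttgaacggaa
Ftl1, 5′ untranslated region, chr7:45459780-45459806, minus strand: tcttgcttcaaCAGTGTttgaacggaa
Slc40a1, 5′ untranslated region, chr1:45925466-45925492, minus strand: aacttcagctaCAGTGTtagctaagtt
Tfrc, 3′ untranslated region, chr16:32631220-32631246, plus strand: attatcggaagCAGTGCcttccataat
Tfrc, 3′ untranslated region, chr16:32631599-32631625, plus strand: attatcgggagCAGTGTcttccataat
Tfrc, 3′ untranslated region, chr16:32631664-32631690, plus strand: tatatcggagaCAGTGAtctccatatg
Tfrc, 3′ untranslated region, chr16:32631711-32631737, plus strand: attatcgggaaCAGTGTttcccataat
The ferritin sites are alike, with 2 substitutions over 27 bases from Fth1 to Ftl1, C3T and C17T, counted from 1 at the 5′ end of the printed site. Tfrc carried 4 such hairpins.

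Per length, ferritin mRNA stood far above the other members. On the scale of CPM per kilobase of the main transcript, Fth1 averaged 6838 ± 3745 in the knockout-labelled libraries (SD, n = 2) and 10336 ± 1571 in the controls (SD, n = 3). Ftl1 averaged 6037 ± 3475 in the knockout-labelled libraries (SD, n = 2) and 6952 ± 1372 in the controls (SD, n = 3). Together the ferritin genes took 1.04% and 2.12% of all counts in the knockout-labelled libraries and 1.98% to 2.65% in the controls, and Fth1 was among the 6 most abundant genes of every library. Over all 5 libraries the order of levels per kilobase was Fth1 (8937), Ftl1 (6586), Slc11a1 (294), Blvrb (163), Slc11a2 (60.1), Slc40a1 (46.0), Tfrc (28.2), Aco1 (24.7), Ireb2 (15.3) and Ncoa4 (14.7). Within each library Fth1 was 1.117 to 1.83 times Ftl1 per kilobase, although Ftl1 came first with all annotated exons merged as the length (4758, against 3849 for Fth1). Slc11a2 stood above Slc40a1, and Slc40a1 above Tfrc, in each of the 5 libraries, while their ranges over libraries overlapped; with merged exons Tfrc (22.3) averaged above Slc40a1 (17.2). Tfrc and Aco1 changed places between libraries. In the controls Ncoa4 was the lowest member at 9.43 ± 0.913 CPM per kilobase (SD, n = 3), below Ireb2 at 15.1 ± 1.51 (SD, n = 3). By its mean in the knockout-labelled libraries Ncoa4 ranked 8 of 10 at 22.5 ± 11.04 CPM per kilobase (SD, n = 2), next to Tfrc at 21.2 ± 10.4 (SD, n = 2) and above Ireb2 at 15.5 ± 1.54 (SD, n = 2). That rank came from knockout-labelled library 2, with 30.3 for Ncoa4 against 14.4 for Ireb2. In knockout-labelled library 1 Ncoa4 was the lowest member, as in the controls, at 14.7 against 16.6 for Ireb2.

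None of the members passed the test across all genes, and Ncoa4 was the only member whose groups did not overlap. With edgeR's quasi-likelihood test, 0 of the 10 members and 0 of the 12543 genes tested (0%) had an adjusted p under 0.05. At an unadjusted p under 0.05 there was 1 member, Ncoa4, by edgeR (6.68% of all genes tested) and by limma-voom (6.05%). Both knockout-labelled libraries lay above every control for 1 member, where 9.85% of all genes tested did so, and below every control for 0 members, against 10.4% of all genes. In either direction that made 1 of 10 members against 20.3% of all genes tested, so the members' count is not above the background. The median log2 fold change was -0.20 over the members and 0.01 over all genes tested, with 3 members positive and 7 negative.

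**Figure D1:**
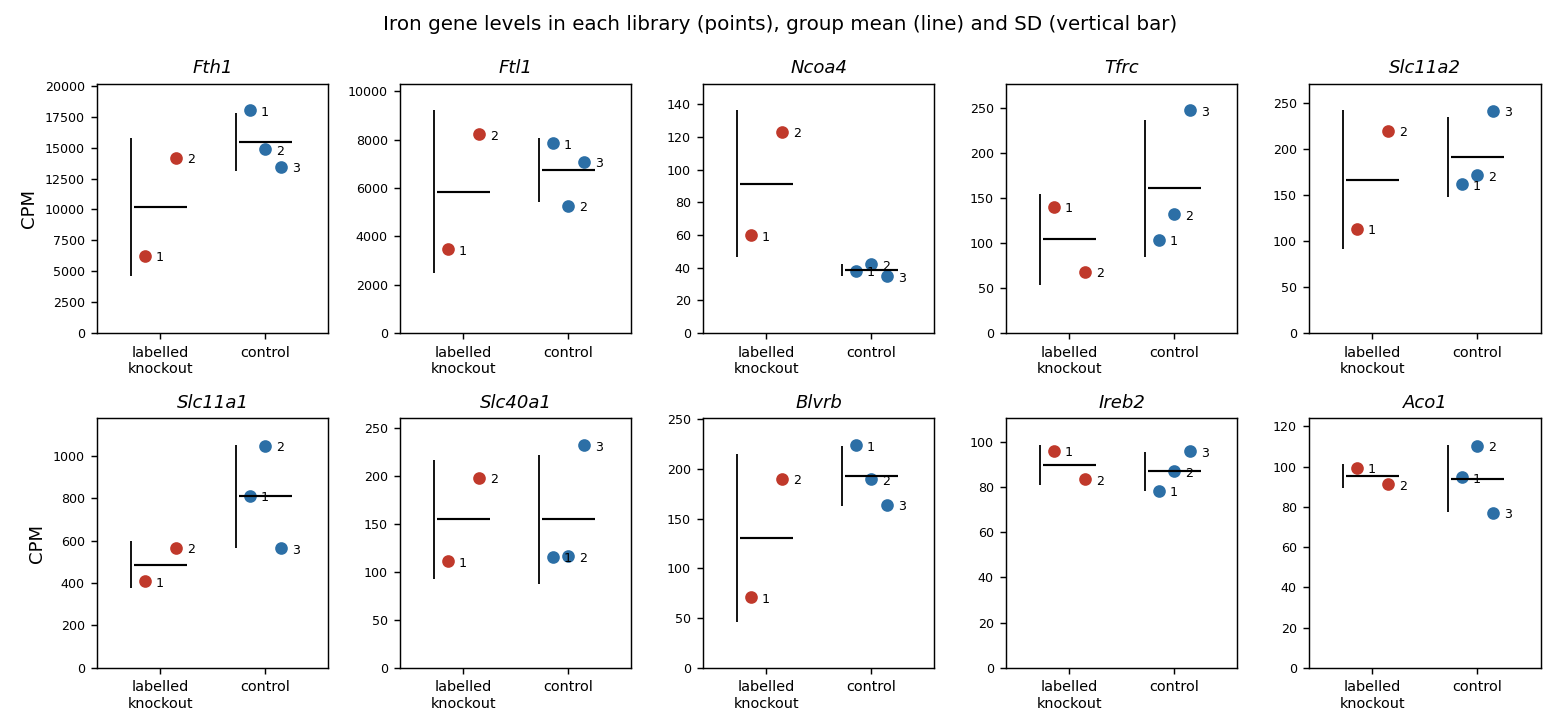
CPM (vertical axes, linear from 0) of the 10 iron genes in the 2 knockout-labelled libraries (left, red) and the 3 controls (right, blue), with the replicate number beside each point, the group mean as a horizontal line and the SD as a vertical bar. Ncoa4 is the gene whose red points, at 59.7 and 123 CPM, both lie above the blue ones, at 34.7 to 42.1 CPM; for Fth1, Ftl1 and Blvrb only knockout-labelled library 1 lies below the controls.

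Ncoa4, the ferritin receptor of autophagy, was at 59.7 and 123 CPM in the knockout-labelled libraries, against 38.2, 42.1 and 34.7 CPM in the controls. Both knockout-labelled libraries were above all controls, and they differed from each other by 2.06-fold while the controls stayed close together. The means were 91.5 ± 44.9 CPM in the knockout-labelled libraries (SD, n = 2) and 38.3 ± 3.71 CPM in the controls (SD, n = 3), a ratio of 2.39. The log2 fold change was 1.25 (SE 0.331), with an unadjusted p = 0.00962 and an adjusted p = 0.477 in edgeR. DESeq2 gave an adjusted p = 0.0825 and limma-voom 0.651 for Ncoa4. Without knockout-labelled library 1 the log2 fold change was 1.65 and the DESeq2 adjusted p = 0.000584, and without knockout-labelled library 2 the log2 fold change was 0.64 and the DESeq2 adjusted p = 0.355. Here and below, a test without 1 of these libraries sets a single library against 3 controls. Such a test takes the spread from the controls alone and assumes that the single library varies as they do. The share of all genes that DESeq2 called in such fits was not taken. The unadjusted edgeR p for Ncoa4 ranged from 0.000549 to 0.0418 over the edgeR fits tried. With each library's trend by transcript length taken out, the log2 fold change was 1.21. Ncoa4 lies on chromosome 14 at 32159865 to 32179855 (plus strand, ENSMUSG00000056234.15), with no overlapping exon of another gene annotated. Markers of the choroid plexus, the epithelium that makes cerebrospinal fluid, also stood apart by group. Of these, 6 of 6 lay above every control, as did 9.85% of all genes tested. Their sum was 157 and 220.3 CPM in the knockout-labelled libraries against 7.47 to 26.5 CPM in the controls. Ttr made 101 and 203 CPM of it and was higher in knockout-labelled library 2, as Ncoa4 was. Clic6, Kl, Kcnj13, Folr1 and Otx2 were higher in knockout-labelled library 1. The part of these markers in the Ncoa4 values was not tested. In bulk samples, fewer cells of a type and less RNA per cell cannot be told apart.

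Regulators of ferritin turnover and of the iron regulatory proteins were listed beside Ncoa4. All 7 were tested, 6 with a positive and 1 with a negative log2 fold change, a median of 0.15, and 0 genes at an unadjusted edgeR p under 0.05. The median was -0.06 without knockout-labelled library 1 and 0.30 without knockout-labelled library 2. Rb1cc1, a scaffold of the autophagy initiation complex that also binds NCOA4, was at 53.4 and 47.0 CPM in the knockout-labelled libraries, against 34.0, 42.4 and 37.1 CPM in the controls (edgeR adjusted p = 0.852). Atg9a, a lipid scramblase of early autophagosomes, was at 66.5 and 66.6 CPM in the knockout-labelled libraries, against 50.3, 55.3 and 56.6 CPM in the controls (edgeR adjusted p = 0.877). In these 2 of the 7 genes, both among those named for their small p, the knockout-labelled libraries lay above every control, as in 9.85% of all genes tested, while Herc2, which encodes the ubiquitin ligase for NCOA4, overlapped at 449 and 208 CPM against 192 to 294 CPM. Tax1bp1, an autophagy receptor that works with NCOA4, had a log2 fold change of 0.08 (SE 0.256). Cul1, the scaffold of the ligase that removes the iron regulatory protein of Ireb2, had 0.15 (SE 0.201).

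Ferritin heavy chain mRNA was low in 1 of the knockout-labelled libraries. Fth1 was at 6259.7 and 14172 CPM in the knockout-labelled libraries, against 18025, 14863 and 13440.2 CPM in the controls. Knockout-labelled library 1 was the lowest of all 5, and knockout-labelled library 2 lay within the controls. The log2 fold change was -0.60 (SE 0.497; edgeR adjusted p = 0.924), which became -0.15 without knockout-labelled library 1 and -1.30 without knockout-labelled library 2, where DESeq2 gave an adjusted p = 0.0183 for the single library left. Markers of oligodendrocytes, which also hold much ferritin, summed to 12259 and 4541 CPM in the knockout-labelled libraries and 10501, 9443 and 1250.4 CPM in the controls; their part in the Fth1 values was not tested. Fth1 lies on chromosome 19 at 9980598 to 9985098 (plus strand, ENSMUSG00000024661.7).

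Ftl1, the ferritin light chain gene, was at 3465 and 8222 CPM in the knockout-labelled libraries, against 7846, 5261 and 7083 CPM in the controls. Here the knockout-labelled libraries held both the lowest and the highest value, and the log2 fold change was -0.20 (SE 0.483; edgeR adjusted p = 0.961). It was 0.26 without knockout-labelled library 1 and -0.96 without knockout-labelled library 2. Counts of Fth1 divided by those of Ftl1 were 1.81 and 1.72 in the knockout-labelled libraries and 2.30, 2.83 and 1.90 in the controls, so the heavy chain share was lowest in both knockout-labelled libraries. That ratio was not tested. The Ftl1 locus (chromosome 7, 45457944 to 45459884, minus strand, ENSMUSG00000050708.16) overlaps exons of Gm10252 on the other strand and of Gm22133 on the same strand. The processed copy Ftl1-ps1 was counted at 29.6% to 31.4% of the Ftl1 count in every library, so reads shared between the copies make the Ftl1 level uncertain; adding them gave a log2 fold change of -0.20.

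Blvrb followed Fth1 from library to library. It was at 70.8 and 190 CPM in the knockout-labelled libraries, against 224, 189.4 and 164 CPM in the controls. As for Fth1, knockout-labelled library 1 was the lowest and the other lay within the controls. The log2 fold change was -0.56 (SE 0.436; edgeR adjusted p = 0.920), -0.05 without knockout-labelled library 1 and -1.44 without knockout-labelled library 2 (edgeR adjusted p = 0.229, DESeq2 adjusted p = 0.0104, both for the single library left). Across the 5 libraries, Fth1 and Blvrb were the nearest pair of members, with a root mean square difference of 0.08 between their log2 CPM values centred on each gene's mean. Blvrb lies on chromosome 7 at 27447978 to 27466144 (plus strand, ENSMUSG00000040466.16).

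These 3 genes have short mRNAs, and the libraries differed in how they represented short transcripts. As annotated, the main transcripts of Ftl1, Blvrb and Fth1 are 968, 1028 and 1494 bases long, in the 2 shortest deciles of genes tested. In the shortest decile (234 to 1290 bases, 1250 genes) the median log2 CPM relative to each gene's mean was -0.56 and 0.33 in the knockout-labelled libraries and 0.27, -0.27 and 0.27 in the controls. In the longest decile (6642 bases and more) it was 0.48 and -0.20 in the knockout-labelled libraries and -0.14, 0.13 and -0.21 in the controls. After the length trend of each library was taken out, Fth1 stood at -0.66 and -0.04 in the knockout-labelled libraries and 0.34, 0.41 and -0.04 in the controls, Ftl1 at -0.29 and 0.10 against 0.12, 0.09 and -0.02, and Blvrb at -0.64 and -0.04 against 0.28, 0.56 and -0.15. Knockout-labelled library 1 was still the lowest for each, and its deviations before the correction had been -1.01 for Fth1, -0.81 for Ftl1 and -1.14 for Blvrb.

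**Figure D2:**
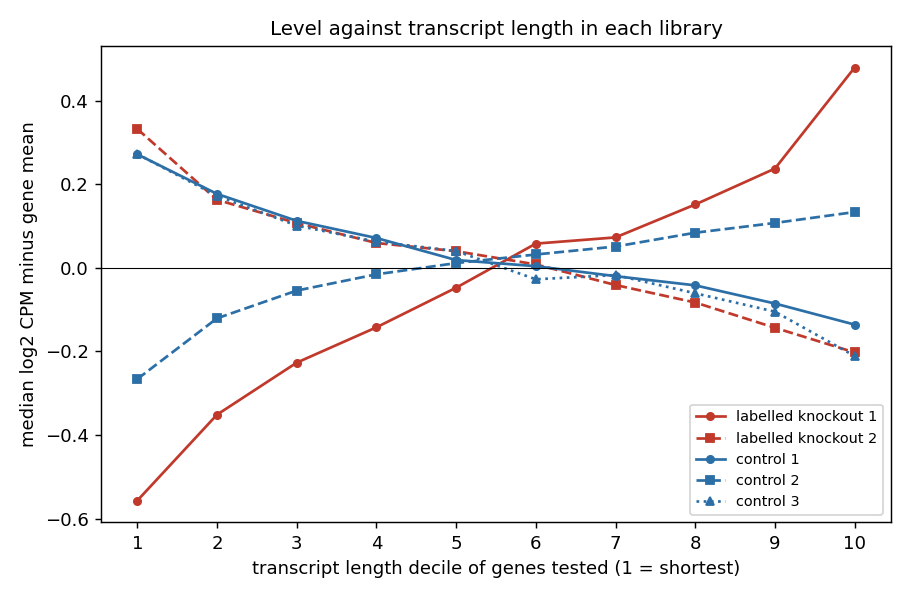
Median over genes of log2 CPM centred on each gene's mean (vertical axis) by decile of main transcript length among the genes tested (horizontal axis, 1 the shortest), with a line for each library, red for labelled knockout and blue for control. Knockout-labelled library 1 climbs from -0.56 in the shortest decile to 0.48 in the longest, control 2 climbs less, and the other 3 libraries slope the other way.

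NRF2 and BACH1 control ferritin and haem-degradation genes through shared antioxidant response elements, and their targets outside the members were mostly negative. Of 12 tested, 2 had a positive and 10 a negative log2 fold change, with a median of -0.52 against 0.01 over all genes tested; 0 passed the adjusted edgeR test, and 4 were lower at an unadjusted p under 0.05, where 2.69% of all genes were. Hmox1, the haem oxygenase gene whose product releases iron from haem, was at 937 and 824 CPM in the knockout-labelled libraries, against 2538, 2376 and 2035 CPM in the controls. Both knockout-labelled libraries were below every control (log2 fold change -1.40, SE 0.287; edgeR adjusted p = 0.340, DESeq2 adjusted p = 1.4e-05). Sqstm1, a selective autophagy receptor, was at 513 and 597 CPM in the knockout-labelled libraries, against 1001, 1152 and 977 CPM in the controls (edgeR adjusted p = 0.503, DESeq2 adjusted p = 0.0146). The DESeq2 call for Hmox1 was lost without control 1 (adjusted p = 0.0935) or control 2 (0.0502), and that for Sqstm1 was lost whichever of the 5 libraries was left out (0.0653 to 0.696). Txnrd1 and Srxn1, which encode enzymes of thiol redox repair, also lay below every control in both knockout-labelled libraries. The log2 fold change was -0.56 (SE 0.217) for Txnrd1 and -0.71 (SE 0.286) for Srxn1. Of the 12 targets, 5 lay below every control and 0 above, against 10.4% and 9.85% of all genes tested. Prdx1, a peroxiredoxin gene, followed ferritin instead, at 507 and 1648 CPM in the knockout-labelled libraries against 1314 to 1722 CPM in the controls. DESeq2 called 1.95% of all genes with an adjusted p, 0.734% as lower, and 0 of the 10 members.

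Tfrc, the transferrin receptor with its hairpins in the 3′ untranslated region, was at 140 and 67.7 CPM in the knockout-labelled libraries, against 104, 132 and 247 CPM in the controls. Knockout-labelled library 2 was the lowest and control 3 the highest, and knockout-labelled library 1 lay within the controls. It had the widest range of the members, 3.65-fold from the lowest to the highest library. The log2 fold change was -0.63 (SE 0.488; edgeR adjusted p = 0.920), which was -1.28 without knockout-labelled library 1, -0.20 without knockout-labelled library 2 and -0.18 without control 3. Tfrc was lowest in knockout-labelled library 2, where Fth1 lay within the controls and Ftl1 above them, and near the control median in knockout-labelled library 1 where ferritin was lowest. Cycling-cell markers, which Tfrc is known to accompany, summed to 1658 and 460 CPM in the knockout-labelled libraries and 374, 385 and 751 CPM in the controls. In both knockout-labelled libraries 4 of 10 markers lay above every control and 1 below, against 9.85% and 10.4% of all genes tested. Margins over control 3 were narrow in knockout-labelled library 2 for Mki67 (126 against 115 CPM) and Ccnb1 (14.6 against 14.3 CPM). Mki67 was the largest single part of the sum in knockout-labelled library 1, at 789 CPM, followed by Top2a at 306 CPM. Pcna, a replication clamp gene, was the marker below every control, at 106 and 105 CPM in the knockout-labelled libraries against 182, 164 and 288 CPM in the controls, highest in control 3 as Tfrc was. The part of cycling cells in the Tfrc values was not tested. Tfrc lies on chromosome 16 at 32608920 to 32632794 (plus strand, ENSMUSG00000022797.16).

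The metal transporters of the SLC11 family did not follow each other. Slc11a1, the phagosomal transporter also known as NRAMP1, was at 410 and 566.2 CPM in the knockout-labelled libraries, against 813 CPM in control 1, 1050.2 CPM in control 2 and 565.0 CPM in control 3. The lower values were in the knockout-labelled libraries, but control 3 lay between them. Its log2 fold change was -0.73 (SE 0.350; edgeR adjusted p = 0.832), from -0.98 without knockout-labelled library 2 to -0.50 without control 2. Without control 3 the edgeR p was 0.0392 and the log2 fold change -0.93. Slc11a1 lies on chromosome 1 at 74375195 to 74386062 (plus strand, ENSMUSG00000026177.11), with no exon overlap. After the length trend was taken out, Slc11a1 stood at -0.56 and -0.25 in the knockout-labelled libraries and 0.25, 0.74 and -0.19 in the controls. Both lay below every control on that scale, with control 3 close to knockout-labelled library 2. The share of all genes that did so was not taken on that scale, and was 10.4% without the correction. With the length correction edgeR gave a log2 fold change of -0.71 (adjusted p = 0.743).

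Slc11a2, the endosomal transporter also known as DMT1, was at 113 and 220.3 CPM in the knockout-labelled libraries, against 162, 171.5 and 242 CPM in the controls. Knockout-labelled library 2 and control 3 were the highest, and the groups overlapped, with a log2 fold change of -0.20 (SE 0.356; edgeR adjusted p = 0.941). Slc11a1 counts were 3.61 and 2.57 times those of Slc11a2 in the knockout-labelled libraries and 5.02, 6.12 and 2.34 times in the controls. Slc11a2 lies on chromosome 15 at 100387898 to 100425072 (minus strand, ENSMUSG00000023030.16) and overlaps exons of Gm5475 on the other strand.

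Slc40a1, which encodes ferroportin, the iron exporter, had the same mean in both groups. It was at 111 and 199 CPM in the knockout-labelled libraries, against 116.1, 116.3 and 232 CPM in the controls. Knockout-labelled library 2 and control 3 were high, as for Slc11a2, and the other 3 libraries were close together. The log2 fold change was -0.0001 (SE 0.425; edgeR adjusted p = 1), and it ranged from -0.48 without knockout-labelled library 2 to 0.42 without control 3. Slc40a1 and Slc11a2 were the second nearest pair of members, with a root mean square difference of 0.22. The summed level of markers of border macrophages, the brain macrophages of the meninges and vessels, was highest in the same libraries, and Mrc1 carried most of it. The 6 markers summed to 486 and 1700.2 CPM in the knockout-labelled libraries and 393, 329 and 684 CPM in the controls, of which Mrc1 made 382 and 1199.8 CPM against 216, 238 and 617.5 CPM. Cd163 and Cbr2 were also highest in knockout-labelled library 2 and control 3. Cd163 reached 9.88 CPM in the former and 8.84 CPM in the latter, with knockout-labelled library 1 close behind (8.74 CPM). Cbr2 reached 6.59 CPM in the former but only 0.743 CPM in the latter. Pf4, F13a1 and Lyve1 did not follow. For Pf4 the knockout-labelled values were 15.0 and 299 CPM, and the control values 142, 41.0 and 32.9 CPM. For F13a1 they were 79.1 and 185 CPM, with controls of 29.9, 47.0 and 23.9 CPM. Lyve1 was highest in control 1 (1.19 CPM). The part of these markers in the Slc40a1 and Slc11a2 values was not tested. Slc40a1 lies on chromosome 1 at 45908068 to 45926523 (minus strand, ENSMUSG00000025993.10).

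**Figure D3:**
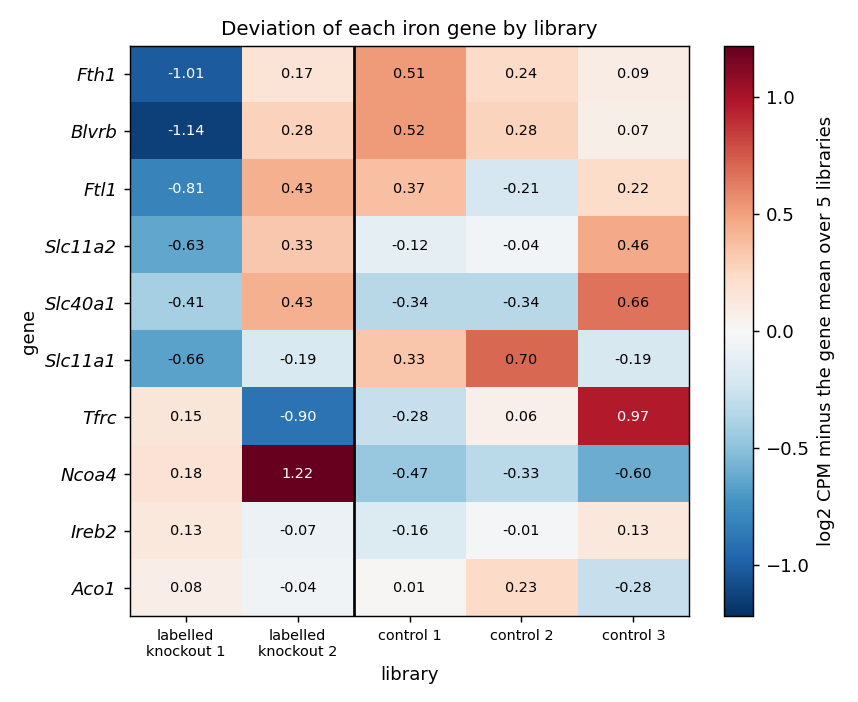
Log2 CPM centred on each gene's mean (colour and printed value, red above and blue below the mean) for each iron gene (rows) in the knockout-labelled libraries and the controls (columns, divided by the black line). Fth1, Blvrb and Ftl1 are at -1.01, -1.14 and -0.81 in knockout-labelled library 1, Slc11a2 and Slc40a1 are high in knockout-labelled library 2 and control 3, and Ireb2 and Aco1 stay within -0.28 to 0.23.

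The iron regulatory protein genes were the steadiest members. Ireb2, which encodes IRP2, the form controlled by degradation, was at 95.9 and 83.3 CPM in the knockout-labelled libraries, against 78.3, 86.8 and 95.7 CPM in the controls, with a log2 fold change of 0.04 (SE 0.200; edgeR adjusted p = 0.981). Aco1, which encodes IRP1, a cytosolic aconitase that binds RNA when its iron-sulfur cluster is lost, was at 99.6 and 91.2 CPM in the knockout-labelled libraries, against 94.7, 110.5 and 77.2 CPM in the controls, with a log2 fold change of 0.02 (SE 0.225; edgeR adjusted p = 0.990). The highest library exceeded the lowest by 1.23-fold for Ireb2 and 1.43-fold for Aco1, against 2.09-fold to 3.65-fold for the other 8 members. With each library left out in turn, the log2 fold change stayed between -0.09 and 0.14 for Ireb2 and between -0.10 and 0.15 for Aco1. Ireb2 lies on chromosome 9 at 54863789 to 54912530 (plus strand, ENSMUSG00000032293.8), and Aco1 on chromosome 4 at 40143081 to 40198338 (plus strand, ENSMUSG00000028405.9).

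**Figure D4:**
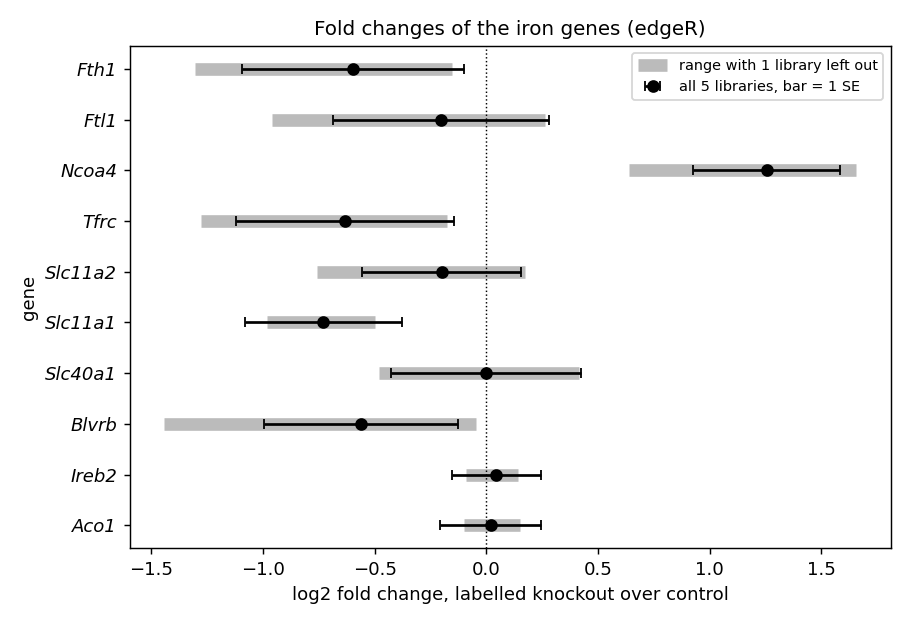
Log2 fold change of labelled knockout over control (horizontal axis) for each iron gene from edgeR with all 5 libraries (black points, bars of 1 SE), and the range when each library is left out in turn (grey). Ncoa4 and Slc11a1 keep their direction with a gap to 0, at 0.64 to 1.65 and -0.98 to -0.50. Fth1, Tfrc and Blvrb also stay below 0, with upper ends at -0.15, -0.18 and -0.05. The ranges of Ftl1, Slc11a2, Slc40a1, Ireb2 and Aco1 cross 0.

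Other iron and haem genes were described by lists, as counts and medians beside those of all genes. Of 85 genes in 6 lists, 76 were tested and 0 had an adjusted edgeR p under 0.05; 1 was higher and 5 lower at an unadjusted p under 0.05, against 3.99% and 2.69% of all genes. Their median log2 fold change was 0.01. In both knockout-labelled libraries 7 of the 76 lay above every control, against 9.85% of all genes tested, and 11 below, against 10.4%.

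Iron transport genes and carriers outside the members had 15 of 21 genes tested, 9 positive and 6 negative, with a median of 0.18 and 0 genes at an unadjusted p under 0.05. The median was -0.24 without knockout-labelled library 2. Slc39a14, a transporter of iron and zinc not bound to transferrin, was the 1 gene of 15 with no overlap, where 20.3% of all genes had none, at 40.6 and 27.2 CPM in the knockout-labelled libraries against 43.1 to 56.3 CPM in the controls (edgeR adjusted p = 0.872). Hfe, which binds the transferrin receptor, was at 41.2 and 90.5 CPM in the knockout-labelled libraries, against 34.7, 34.6 and 59.5 CPM in the controls, high in the same libraries as Slc40a1. The metalloreductase gene Steap2 overlapped between groups, at 9.81 and 2.16 CPM in the knockout-labelled libraries against 1.26 to 2.83 CPM in the controls, as did the ferroxidase gene Heph (log2 fold change 0.95, SE 0.706). Pcbp1 and Pcbp2, whose products carry iron to ferritin, differed by -0.07 (SE 0.272) and 0.18 (SE 0.220) on the log2 scale.

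Haem genes had 19 of 20 tested, 10 positive and 9 negative, with a median of 0.04 that was -0.03 without knockout-labelled library 1 and -0.16 without knockout-labelled library 2. Hmox1 and Slc46a1 were the 2 genes at an unadjusted edgeR p under 0.05. Slc46a1, a folate and haem carrier, was at 28.2 and 20.1 CPM in the knockout-labelled libraries, against 39.2, 50.0 and 44.8 CPM in the controls (a log2 ratio of -0.89, SE 0.254; edgeR adjusted p = 0.521). Fech, which inserts iron into haem, was at 69.9 and 73.8 CPM in the knockout-labelled libraries against 52.7 to 62.1 CPM in the controls (edgeR adjusted p = 0.888). Cd163, the scavenger receptor for haemoglobin, was at 8.74 and 9.88 CPM in the knockout-labelled libraries and 2.60 to 8.84 CPM in the controls, and Lrp1, the receptor for haem bound to haemopexin, at 8625 and 4250.5 CPM against 4165 to 6167 CPM.

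Iron-sulfur cluster assembly genes had 19 of 19 tested, 7 positive and 12 negative, with a median of -0.07 and 0 genes at an unadjusted p under 0.05. The median was 0.05 without knockout-labelled library 1 and -0.51 without knockout-labelled library 2. Hspa9, the mitochondrial chaperone of the pathway, was at 368 and 236 CPM in the knockout-labelled libraries, against 480.0, 647 and 373 CPM in the controls, and Fdxr, the ferredoxin reductase gene, at 10.8 and 8.26 CPM against 4.68 to 6.97 CPM. Lyrm4, a partner of the cysteine desulfurase, was below every control at 3.69 and 4.43 CPM against 5.42 to 6.84 CPM. Nfu1, a cluster carrier, overlapped (log2 fold change -0.71, SE 0.382). For these genes the edgeR adjusted p was 0.826 or more.

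Other mRNAs known to carry an iron-responsive element had 5 of 7 genes tested, and all 5 had a positive log2 fold change, with a median of 0.64 that was 0.10 without knockout-labelled library 1 and 1.21 without knockout-labelled library 2. Epas1, which encodes HIF-2 alpha and is also strongly expressed by endothelium, was at 146 and 79.0 CPM in the knockout-labelled libraries, against 22.7, 24.95 and 40.3 CPM in the controls. Both knockout-labelled libraries were above all controls (log2 fold change 1.94, SE 0.375; edgeR adjusted p = 0.325, DESeq2 adjusted p = 0.00245). DESeq2 no longer called Epas1 without knockout-labelled library 1 (adjusted p = 0.195), control 1 (0.0976) or control 2 (0.0719). Of 5 endothelial markers 2 lay above every control and 1 below, against 9.85% and 10.4% of all genes tested. Cldn5 was at 0 in every library. Flt1 overlapped, at 71.8 and 10.6 CPM in the knockout-labelled libraries against 72.1, 106 and 29.6 CPM in the controls. Vwf was at 55.6 and 81.7 CPM in the knockout-labelled libraries, against 13.4, 18.6 and 8.25 CPM in the controls, and Slco1a4 at 1.13 and 0.27 CPM against 0 in every control. Pecam1 was below every control at no more than 0.108 CPM, and the sum overlapped, at 129 and 92.7 CPM in the knockout-labelled libraries and 86.4, 126 and 38.2 CPM in the controls. Their part in the Epas1 values was not tested. Pfn2 and Cdc42bpa overlapped between groups.

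**Figure D5:**
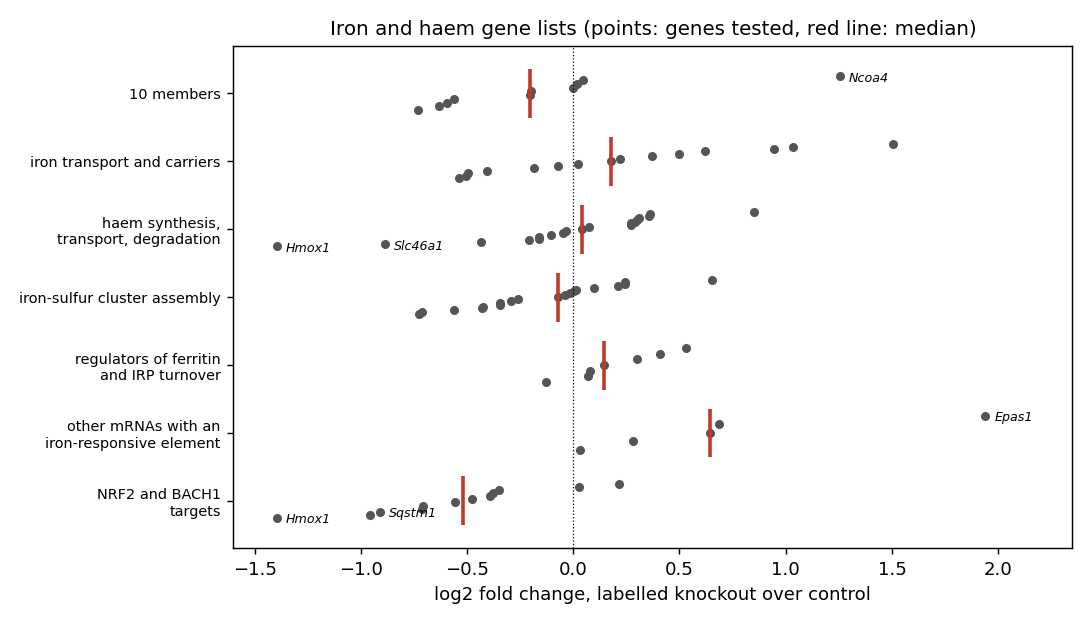
Log2 fold change of labelled knockout over control (horizontal axis) of each gene tested in the 10 members and in 6 lists of other iron and haem genes (rows), with the list's median as a red line. Ncoa4 stands apart from the other members at 1.25, Hmox1 at -1.40 is in both the haem and the NRF2 and BACH1 rows, and the medians lie between -0.52 and 0.64.

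Genes with the profile nearest to 2 of the members were looked up over the 5 libraries among genes with a mean of at least 10 CPM. For Ncoa4 they were Kif3a, Mast1 and Pygl, with root mean square differences of 0.12, 0.12 and 0.15 in centred log2 CPM. Kif3a, a kinesin motor subunit, was at 116 and 203 CPM in the knockout-labelled libraries against 59.2 to 77.1 CPM in the controls. For Fth1 they were Adck5, Cmtm6 and Tpcn2, with differences of 0.06, 0.09 and 0.09. Cmtm6, a membrane protein gene, was at 82.6 and 177 CPM in the knockout-labelled libraries against 166 to 201 CPM in the controls, low in knockout-labelled library 1 as Fth1 was.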

How the data were processed

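The deposited table gives read counts per gene, by symbol, for 5 libraries, and its values are whole numbers with different totals, so the authors had not scaled them. Submitters' processing notes name FastQC, STAR, HTSeq and mm10. Their versions, the annotation, the strand setting and the handling of multiply placed reads were not given in the sources used here. Total RNA was extracted with Trizol and made into libraries with a NEBNext Ultra kit, per the labels' protocols. Groups and numbers come from the sample titles. The title of control 3 carries a second number, and the library number was used. No column of per-sample values was left out. Depth was 13947500 to 19577217 counts per library, and every pair of libraries differed by a chi-square of at least 53.4 per degree of freedom.

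Tests used edgeR 4.0.16 in R 4.3.3 (quasi-likelihood F test, two-sided, filterByExpr, TMM, robust) with Benjamini-Hochberg adjustment over 12543 genes and a threshold of 0.05. CPM were taken on TMM-scaled library sizes, and log2 CPM used a prior count of 2. DESeq2 1.42.0 and limma-voom (limma 3.58.1) were alternatives, beside other scalings, filters and fits. The edgeR and DESeq2 steps were first tested on simulated data. Coordinates, exon overlaps and lengths of the principal transcript are from GENCODE M21 (GRCm38), to which 21926 symbols matched. The main transcript of a gene is the longest of its best-ranked principal transcripts. It was not chosen by its expression in these cells, and levels per kilobase and the length correction rest on that choice. The length correction took out each library's loess trend (span 0.3) over 12490 genes.

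The members and lists were chosen with earlier results of these data known. Named genes were the members and Ythdf2, of each list up to 4 genes with the smallest p and 2 with the highest mean, and the 3 nearest profiles to Fth1 and to the member with the smallest p. Some genes that this rule takes are not reported here.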

Additional observations from a re-analysis of the deposited data

How the results depend on the processing

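The number of genes called was 0 in edgeR (838 at an unadjusted p under 0.05) and 0 in limma-voom (759), and stayed 0 in edgeR under other scalings, filters, the legacy or non-robust fit and each library left out. It was 244 in DESeq2, 152 higher and 92 lower, and 4 with the replicate block. Of the other iron and haem genes, DESeq2 called 3. Members were called only by DESeq2 with 1 library left out, an alternative chosen after seeing the data: Ncoa4 without knockout-labelled library 1, and Fth1 and Blvrb without knockout-labelled library 2. Each such call sets a single library against the 3 controls, whose spread alone it uses. The share of all genes that DESeq2 called in those fits was not taken, so these calls have no background beside them. The labels do not say whether replicate numbers pair the libraries. Deviations from the group means correlated at 0.15 for number 1 and -0.56 for number 2. These values cannot decide it, because the deviations of the 2 knockout-labelled libraries from their own mean mirror each other. With the replicate block the log2 fold change was 1.10 for Ncoa4, 0.36 for Slc40a1 and -0.10 for Aco1. Fth1, Tfrc, Slc11a1, Ncoa4 and Blvrb kept their direction under the 17 alternatives tried for each. Slc40a1, at -0.0001, became 0.015 with DESeq2's size factors, 0.0011 with upper quartile scaling, 0.0011 with library totals, 0.0083 with a minimum of 1 CPM in 3 libraries, 0.015 in DESeq2 and 0.016 in limma-voom. The length correction, also added later, gave -0.14 for Ireb2, -0.072 for Aco1 and 1.21 for Ncoa4. Leaving out each library gave log2 fold changes of -0.96 to 0.26 for Ftl1, -0.48 to 0.42 for Slc40a1, -0.76 to 0.17 for Slc11a2, -0.090 to 0.14 for Ireb2 and -0.10 to 0.15 for Aco1. List medians moved by over 1.5 times in some settings. The transport list had 0.03 in limma-voom, 0.04 with the replicate block, 0.07 with the length correction and 0.04 without control 3. The other mRNAs with an iron-responsive element had 0.28 in limma-voom, 0.17 with the block, 0.23 with the length correction and 0.32 without control 3. Iron-sulfur genes had -0.23 in limma-voom, -0.18 with the block and -0.23 without control 2, regulators 0.26 without control 2 and haem genes -0.01 in limma-voom, -0.02 with the length correction and 0.14 without control 3. The cause was not tested.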
